A study of Arabidopsis thaliana with 9 samples.

Results

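Isocitrate lyase (ICL, AT3G21720) stands for the glyoxylate cycle in these root arrays. The group was defined as 5 genes of the cycle and its outlet, namely ICL, malate synthase (MLS, AT5G03860), the peroxisomal citrate synthases CSY2 (AT3G58750) and CSY3 (AT2G42790), and phosphoenolpyruvate carboxykinase (PCK1, AT4G37870). The set was chosen by the ICL difference between overexpressor and mutant on these same arrays. A gene counted as measured where a probe set was annotated with that gene alone. ICL was the 1 gene of the 5 that met this, through 1 of the 38408 probe sets, of which 16722 had 1 gene. The annotation gave the other 4 genes no such probe set, although 20927 probe sets are not listed in it, 0 probe sets annotated with several genes included any of the 5, and MLS, CSY2, CSY3 and PCK1 were not analysed here.

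The 9 arrays held RNA from an overexpressor of bHLH49, a loss-of-function mutant of bHLH49 and wild type, with 3 arrays for each. bHLH49 belongs to the basic helix-loop-helix family of transcription factors. All plants were in the Col-0 background of Arabidopsis thaliana and were harvested after 4 days on Murashige and Skoog medium in long days. Transgenic seed was selected with kanamycin or phosphinothricin, and the tissue is labelled root in one field and root tips in another. No source used here gives the promoter of the overexpression construct, the mutant allele, the number of independent lines or any pooling of plants. Nothing says that the replicates came from separate plantings, so the p-values reflect array-to-array spread that could be technical in part. No probe set with 1 gene was paired with bHLH49, so its own transcript was not used to check the genotype labels. The overexpressor arrays stood apart on the first principal component of all probe sets (21% of the variance), at 25.93 to 36.26, against -23.59 to -10.43 for the 6 others.

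The glyoxylate cycle is a peroxisome-linked variant of the citrate cycle. Peroxisomal beta-oxidation turns fatty acids from storage oil into acetyl-CoA, citrate synthase joins it to oxaloacetate, ICL splits isocitrate into succinate and glyoxylate, and malate synthase joins the glyoxylate to a further acetyl-CoA. The decarboxylating steps of the citrate cycle are bypassed, so that carbon can pass through phosphoenolpyruvate carboxykinase to sugar. The pathway is best known from oil-storing seeds such as those of Arabidopsis, whose young seedlings live on stored oil until photosynthesis takes over.

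ICL transcript was lowest in overexpressor roots, higher in wild-type roots and highest in mutant roots. Its RMA values, which are normalized signals on the log2 scale, were 5.97, 5.87 and 5.72 on the overexpressor arrays. On the mutant arrays the values were 7.82, 7.86 and 7.92. On the wild-type arrays they were 7.25, 6.81 and 7.38. No array of one genotype reached into the range of another. Of all probe sets, 19.5% did not overlap between overexpressor and wild type, 12.4% between mutant and wild type and 20.5% between overexpressor and mutant. The share with all genotypes apart at once was not computed. The mutant arrays lay within 0.10 of each other, the overexpressor arrays within 0.25 and the wild-type arrays within 0.57, with wild-type replicate 2 the lowest of its group. All 9 values exceeded the lower quartiles of the arrays (3.65 to 3.70). The overexpressor values lay near the array medians (5.85 to 5.92), and the mutant and wild-type values above them.

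**Figure D1:**
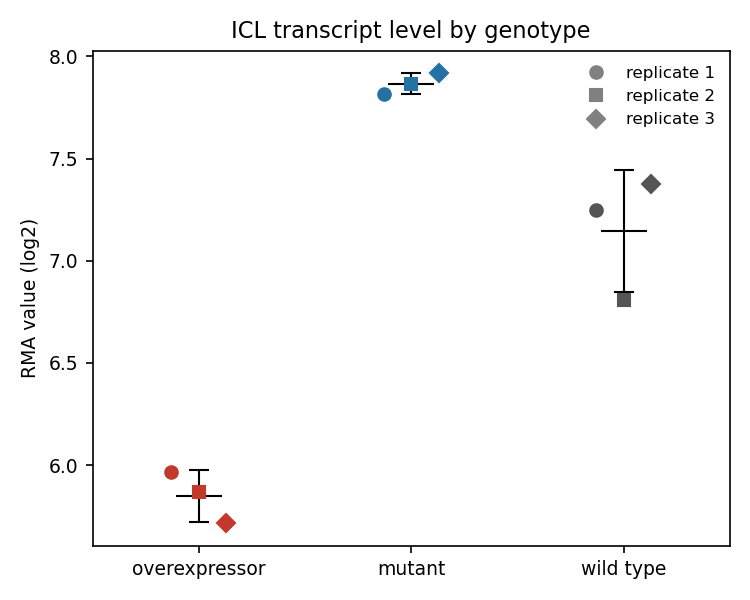
ICL RMA value (log2, vertical axis) on each array of the overexpressor, the mutant and wild type; symbols mark replicates, and bars the mean ± SD (n = 3). The overexpressor arrays lie at 5.72 to 5.97, the mutant arrays at 7.82 to 7.92 and the wild-type arrays at 6.81 to 7.38, with no overlap. Of all probe sets, 19.5% did not overlap between overexpressor and wild type, 12.4% between mutant and wild type and 20.5% between overexpressor and mutant.

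In the overexpressor, set against wild type, ICL fell. The level averaged 5.85 ± 0.13 in the overexpressor and 7.15 ± 0.30 in wild type (log2, SD, n = 3 each). The difference was -1.30 ± 0.14 on the log2 scale (SE; limma, adjusted p = 0.00622 over all probe sets), a 2.46-fold lower signal, and ICL was lower on 3 of 3 overexpressor arrays. In this comparison 1.35% of all probe sets passed an adjusted p of 0.05 (0.745% upward and 0.609% downward), while the arrays of both groups did not overlap for 19.5%. Among the 16722 probe sets with 1 gene, ICL had the 11th lowest difference. The overexpressor arrays also entered the comparison from which ICL was picked (overexpressor against mutant), so this p-value is not independent of the choice of the gene. In RNA from harvested tissue, fewer cells that express a gene and less RNA per cell cannot be told apart.

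The fall did not rest on 1 array. When each of the 6 arrays was left out in turn, the difference lay between -1.46 and -1.18 and passed in all 6 refits (adjusted p from 0.0036 to 0.0376). The value furthest from 0 came without wild-type replicate 2, the array with the lowest ICL of its group. In 10 other settings of the fit the difference lay between -1.30 and -1.26 and passed in all 10. The highest adjusted p, 0.0466, came when only the 6 arrays compared were fitted. All these fits use overexpressor arrays that also singled out ICL. They describe how stable the value is and add no independent support.

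**Figure D2:**
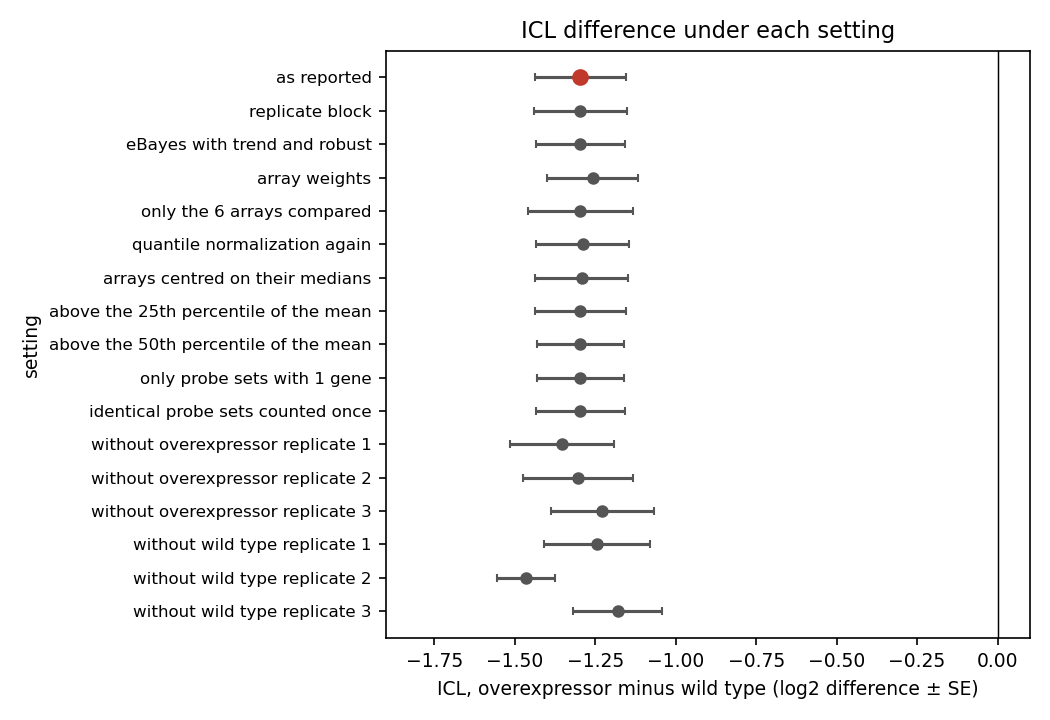
ICL difference between overexpressor and wild type (log2, horizontal axis; bars are ± SE) as reported, in 10 other settings and without each of the 6 arrays (vertical axis). All values lie between -1.46 and -1.18, far from the line at 0.

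In the mutant, set against wild type, ICL did not pass the test. It averaged 7.87 ± 0.05 in the mutant and 7.15 ± 0.30 in wild type (log2, SD, n = 3 each). The difference of 0.72 ± 0.14 (log2, SE) had an adjusted p of 0.295 (limma), although it was the 27th highest among the 16722 probe sets with 1 gene and the arrays did not overlap. In this comparison 0.0234% of all probe sets passed (0.0156% upward and 0.00781% downward), and arrays of both groups did not overlap for 12.4%. Without 1 array the difference lay between 0.55 and 0.84 and passed in 0 of 6 refits; the smallest value came without wild-type replicate 2. Mutant and wild type are therefore neighbours in the order of ICL levels with no called difference. The mutant arrays, too, entered the comparison that singled out ICL.

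The overexpressor against the mutant is the comparison that brought ICL into view, so its values are a description. ICL averaged 5.85 ± 0.13 in the overexpressor and 7.87 ± 0.05 in the mutant (log2, SD, n = 3 each), a difference of -2.02 ± 0.14 (SE), or 4.05-fold. The nearest arrays of both lines were 1.85 apart. Of the 16722 probe sets with 1 gene, ICL had the 2nd lowest difference. Of all probe sets 1.83% were called in this comparison (0.971% upward and 0.857% downward) and 20.5% had groups that did not overlap; ICL is in both shares, and nothing is read from that. It equals the overexpressor difference from wild type minus that of the mutant, and both of those share the same 3 wild-type arrays.

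The enzymes around the cycle were looked up in lists of fatty acid, peroxisome and organic acid genes, made with earlier results of these data known. Of 130 listed pathway genes 24 had a probe set with 1 gene. In the overexpressor against wild type 1 of these 24 rose and 0 fell (4.17% called, beside 1.35% of all probe sets). Fitted alone, the probe sets with 1 gene had 2.61% called, with PPDK (below) among them. The median difference of the 24 was 0.03 (log2), beside -0.01 over all probe sets. In the mutant against wild type 0 of 24 passed, beside 0.0234% of all probe sets, with differences between -0.21 and 0.29. Nothing is read from that count. In the overexpressor against the mutant 2 of 24 rose and 0 fell (8.33% called, beside 1.83% of all probe sets), with a median of 0.01. Among the probe sets with 1 gene fitted alone, 3.27% were called in that comparison. None of these 24 genes fell with ICL in the overexpressor. Only 0.609% of all probe sets fell against wild type and 0.857% against the mutant, so nothing is read from this absence. Counts of 0 calls in the lists and markers below are likewise a description, since so few of all probe sets were called. Of the 11 listed partners of the cycle, which include peroxisomal malate dehydrogenases, aconitases, the succinate/fumarate carrier and the peroxisomal acetyl-CoA synthetase, 0 were measured, and they were not analysed here.

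**Figure D3:**
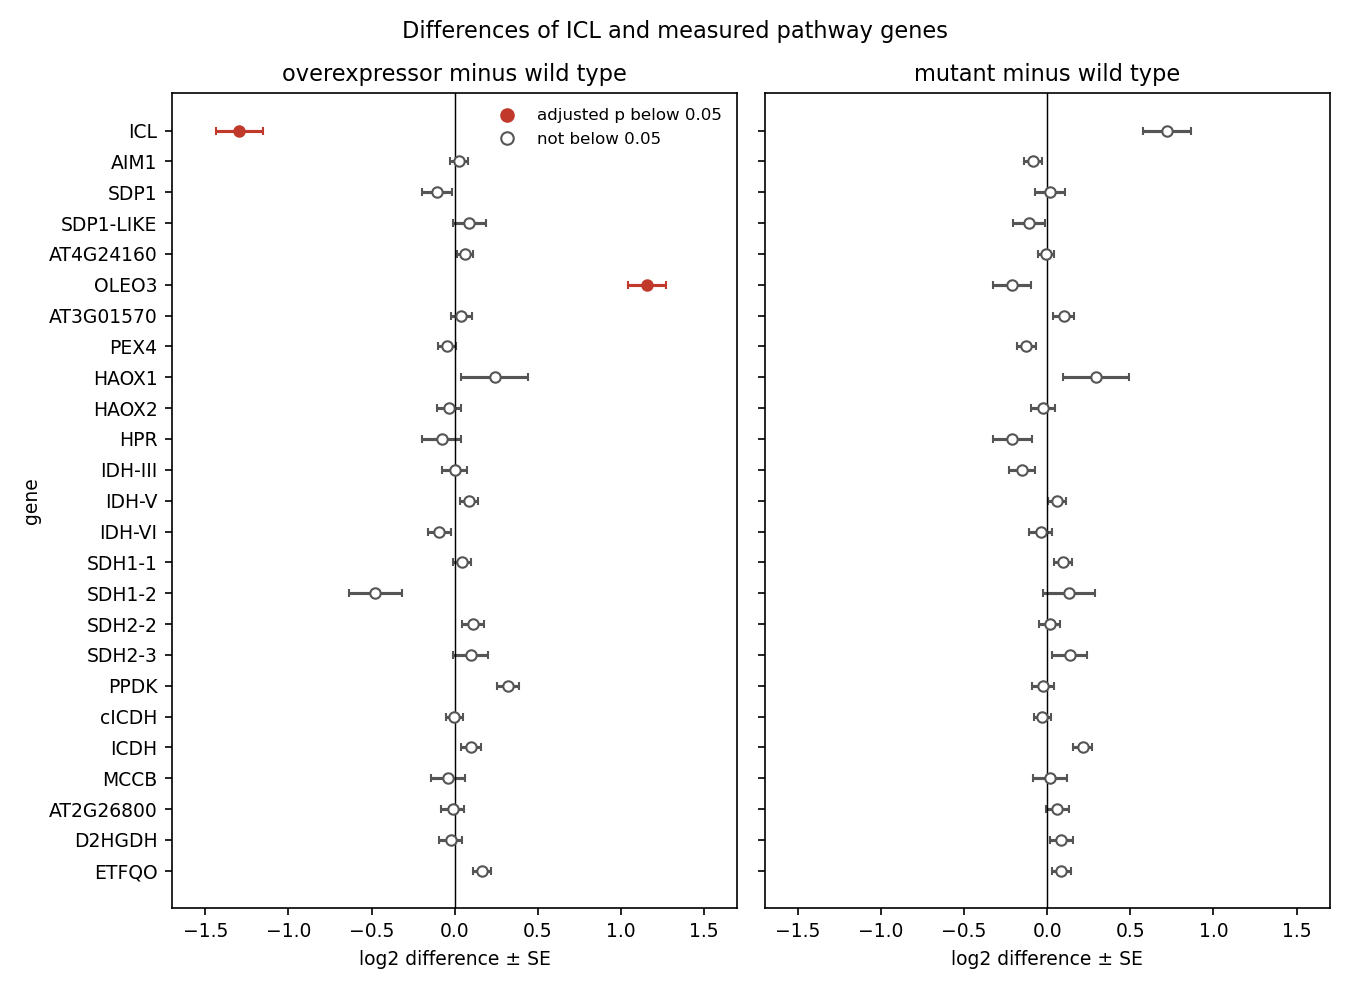
Log2 differences (horizontal axis; bars are ± SE of the fit) of ICL and 24 measured pathway genes (vertical axis), overexpressor minus wild type on the left and mutant minus wild type on the right; filled red points passed the test. ICL at -1.30 and OLEO3 at 1.16 are the filled points, both on the left.

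The gene that rose belongs to storage oil. OLEO3 (AT5G51210) encodes an oleosin, a protein that coats oil bodies in seeds. It had values of 5.25, 5.43 and 5.16 on the overexpressor arrays, 4.15, 3.82 and 3.77 on the mutant arrays, and 4.15, 4.07 and 4.15 on the wild-type arrays. All lay below the array medians (5.85 to 5.92), and the mutant and wild-type values came near the lower quartiles (3.65 to 3.70). The overexpressor arrays stood above all 6 others, and the mutant and wild-type arrays overlapped. Of all probe sets, 19.5% had no overlap between overexpressor and wild type, and 20.5% none between overexpressor and mutant. OLEO3 rose by 1.16 ± 0.11 against wild type (log2, SE; limma, adjusted p = 0.00362), a 2.23-fold higher signal, and by 1.37 ± 0.11 against the mutant (limma, adjusted p = 0.00192). Both calls held in all 6 refits without 1 array. The mutant differed from wild type by -0.21 ± 0.11 (limma, adjusted p = 0.654).

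The other 4 measured oil genes were not called in any of the 3 comparisons. SDP1 (AT5G04040), a lipase that starts the breakdown of storage oil, differed by -0.11 ± 0.09 between overexpressor and wild type, and its relative SDP1-LIKE (AT3G57140) by 0.09 ± 0.10 (log2, SE). A second listed oil body gene, AT3G01570, had means of 4.50 in the overexpressor, 4.56 in the mutant and 4.46 in wild type. AT4G24160 differed by 0.06 ± 0.05 between overexpressor and wild type. The rise on this list was of 1 gene among 5 measured and 10 listed.

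Upstream of ICL, AIM1 (AT4G29010), a multifunctional protein of peroxisomal beta-oxidation, was the 1 measured gene of 22 listed. It averaged 8.85 ± 0.08 in the overexpressor, 8.73 ± 0.02 in the mutant and 8.82 ± 0.03 in wild type (log2, SD, n = 3 each), and passed in 0 of the 3 comparisons. PEX4 (AT5G25760), a ubiquitin-conjugating peroxin, was the 1 measured gene of 23 listed for peroxisome biogenesis, with differences of -0.045 ± 0.055 in the overexpressor and -0.125 ± 0.055 in the mutant against wild type (log2, SE).

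Of the genes that handle glyoxylate and its relatives in the peroxisome, 3 of 14 listed were measured and 0 were called. Of all probe sets, 1.35% were called between overexpressor and wild type, 0.0234% between mutant and wild type and 1.83% between overexpressor and mutant. HPR (AT1G68010), the peroxisomal hydroxypyruvate reductase of photorespiration, differed by -0.08 ± 0.12 in the overexpressor and by -0.21 ± 0.12 in the mutant against wild type (log2, SE). The hydroxy acid oxidases HAOX1 (AT3G14130) and HAOX2 (AT3G14150) differed by 0.24 ± 0.20 and -0.03 ± 0.07 in the overexpressor, and by 0.29 ± 0.20 and -0.03 ± 0.07 in the mutant.

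Mitochondrial enzymes that act on isocitrate and succinate, the substrate and a product of ICL, were measured for 7 of 15 listed genes, with 0 calls in any comparison. Of all probe sets, 1.35% were called between overexpressor and wild type, 0.0234% between mutant and wild type and 1.83% between overexpressor and mutant. SDH1-2 (AT2G18450), an isoform of the flavoprotein subunit of succinate dehydrogenase, had the difference furthest from 0. Its values were 7.71, 7.30 and 7.15 on the overexpressor arrays, 7.97, 8.22 and 7.80 on the mutant arrays, and 7.90, 7.77 and 7.93 on the wild-type arrays. The overexpressor arrays lay below all others. Such separation was common, at 19.5% of all probe sets against wild type and 20.5% against the mutant. The difference of -0.48 ± 0.16 from wild type missed the threshold (limma, adjusted p = 0.245). That of -0.61 ± 0.16 from the mutant missed it too (limma, adjusted p = 0.121). The other isoform, SDH1-1 (AT5G66760), differed by 0.04 ± 0.05 between overexpressor and wild type. The NAD-dependent isocitrate dehydrogenase subunits IDH-III, IDH-V and IDH-VI stood at -0.001, 0.087 and -0.093 in the same comparison, and SDH2-2 and SDH2-3, iron-sulfur subunits of succinate dehydrogenase, at 0.11 and 0.10.

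**Figure D4:**
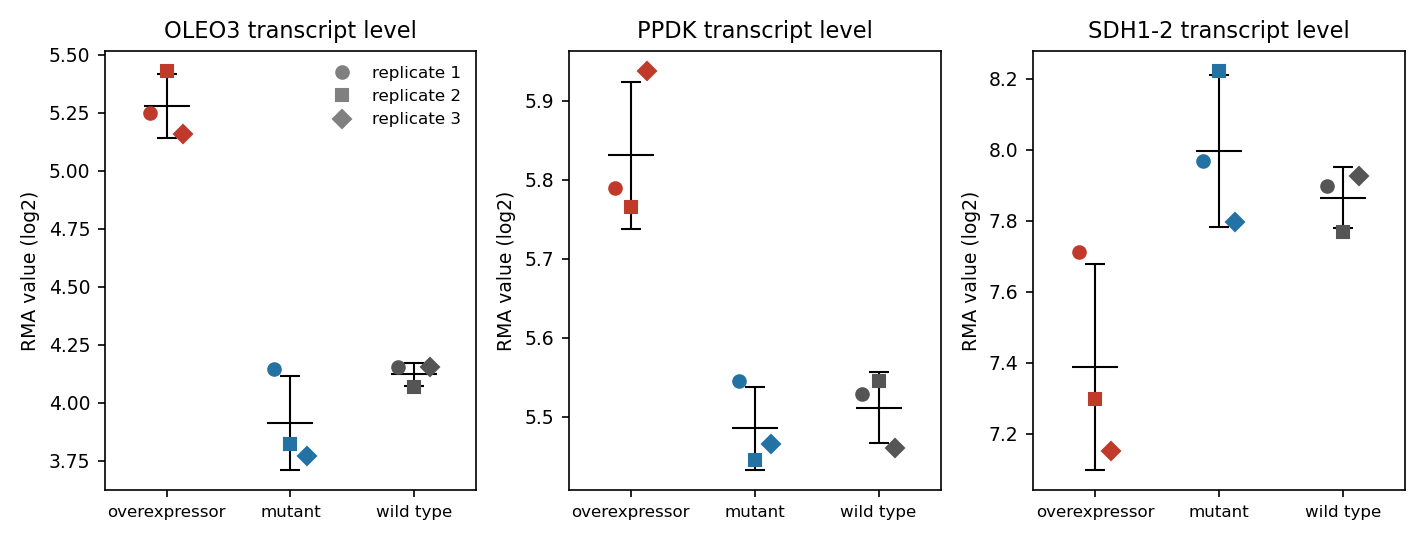
RMA values (log2, vertical axes, each with its own range) of OLEO3, PPDK and SDH1-2 on each array of the overexpressor, the mutant and wild type; symbols mark replicates, bars the mean ± SD (n = 3). The overexpressor arrays stand above the others for OLEO3 (5.16 to 5.43) and PPDK (5.77 to 5.94) and below them for SDH1-2 (7.15 to 7.71). Of all probe sets, 19.5% did not overlap between overexpressor and wild type, and 20.5% between overexpressor and mutant.

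Downstream, on the way from organic acids to sugar, 3 of 22 listed genes were measured. PPDK (AT4G15530), pyruvate orthophosphate dikinase, which makes phosphoenolpyruvate from pyruvate, had values of 5.79, 5.77 and 5.94 on the overexpressor arrays, 5.54, 5.45 and 5.46 on the mutant arrays, and 5.53, 5.54 and 5.46 on the wild-type arrays. The overexpressor arrays lay above all 6 others, where 19.5% of all probe sets did not overlap against wild type and 20.5% against the mutant. PPDK was higher than in the mutant by 0.35 ± 0.07 (log2, SE; limma, adjusted p = 0.0438), but leaving out any of the 6 arrays ended the call (adjusted p from 0.0785 to 0.133). Against wild type the difference of 0.32 ± 0.07 missed the threshold (limma, adjusted p = 0.0672). It passed when fewer probe sets were tested, with adjusted p of 0.0419 above the 25th percentile of mean level, 0.0383 among probe sets with 1 gene and 0.0458 with repeated probe sets counted once; the count of 1 risen gene among the 24 depends on that choice. The NADP-dependent isocitrate dehydrogenases, which act on the substrate of ICL outside the cycle, were not called: the cytosolic cICDH (AT1G65930) stood at -0.002 ± 0.051 and the peroxisomal ICDH (AT1G54340) at 0.10 ± 0.06 in the overexpressor, and at -0.03 ± 0.05 and 0.21 ± 0.06 in the mutant, each against wild type.

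On the list for carbon starvation and branched-chain amino acid breakdown, 4 of 13 genes were measured, with 0 calls. Of all probe sets, 1.35% were called between overexpressor and wild type, 0.0234% between mutant and wild type and 1.83% between overexpressor and mutant. Branched-chain amino acid breakdown feeds acetyl-CoA, and its genes are known to rise when sugar runs short. ETFQO (AT2G43400), which passes electrons from this breakdown to the respiratory chain, stood at 0.17 ± 0.06, MCCB (AT4G34030), a subunit of methylcrotonyl-CoA carboxylase, at -0.04 ± 0.10, and D2HGDH (AT4G36400), a hydroxyglutarate dehydrogenase, at -0.025 ± 0.07 in the overexpressor against wild type (log2, SE). In the mutant all 4 lay between 0.019 and 0.085.

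Markers of other tissues that a harvest of roots could hold were set beside ICL. Of 6 shoot markers 2 were measured. LHCB4.1 (AT5G01530), a light-harvesting protein, had values of 6.49 to 6.59 in the overexpressor, 6.62 to 6.99 in the mutant and 6.37 to 6.72 in wild type, and differed by -0.002 in the overexpressor and by 0.27 ± 0.12 in the mutant against wild type (log2, SE; limma, adjusted p = 0.594 for the mutant). RCA (AT2G39730), Rubisco activase, differed by 0.14 and 0.07. The 63 probe sets of plastid-encoded genes had median differences of 0.01 in the overexpressor and 0.06 in the mutant, with 0 calls. Of all probe sets, 1.35% were called between overexpressor and wild type and 0.0234% between mutant and wild type. The mean of LHCB4.1 was highest in the mutant, like that of ICL, while RCA averaged 7.68 in the overexpressor, 7.61 in the mutant and 7.54 in wild type. The part of shoot tissue in the ICL values was not tested.

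None of 7 listed seed storage protein genes was measured, and they were not analysed here. Of 11 root markers 3 were measured. The root hair expansins EXPA7 (AT1G12560) and EXPA18 (AT1G62980) had levels of 8.93 and 10.5 in the overexpressor, 8.94 and 10.2 in the mutant, and 9.12 and 10.6 in wild type, with 0 calls. AT1G65570, listed among the root markers as a root cap polygalacturonase, rose by 1.57 ± 0.15 in the overexpressor against wild type (log2, SE; limma, adjusted p = 0.00358). It was also higher than in the mutant, by 0.94 ± 0.15 (limma, adjusted p = 0.0221), and 4 of the 6 refits that left out an array (each overexpressor array, and mutant replicate 2) ended that call, with adjusted p from 0.0613 to 0.0818. In the mutant AT1G65570 stood 0.63 ± 0.15 above wild type and was not called (log2, SE, limma, adjusted p = 0.365). Its mutant and wild-type arrays did not overlap, as for 12.4% of all probe sets. Its part in the ICL values was not tested.

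The nearest measured genes on either side of ICL were not called. FOLB3 (AT3G21730), an aldolase of folate synthesis and the next gene in the RefSeq order, was dim at 2.52 ± 0.21 in the overexpressor, 2.62 ± 0.25 in the mutant and 2.60 ± 0.04 in wild type (log2, SD, n = 3 each). On the other side the nearest measured gene was SGP2 (AT3G21700), with 1 gene between it and ICL. SGP2 averaged 6.16 ± 0.11 in the overexpressor, 6.27 ± 0.08 in the mutant and 6.35 ± 0.11 in wild type. For both genes the arrays of the genotypes overlapped and 0 of 3 comparisons passed.

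The genes whose values ran most like those of ICL were found by Pearson correlation over the 9 arrays, which fall into 3 genotypes and are shared by every gene, so the coefficients are a description. Of 16719 other probe sets with 1 gene and values that varied, 122 reached a coefficient of 0.9 or more (0.73%) and 146 one of -0.9 or less (0.873%). The highest 10 belonged to DCP5-L, a relative of an mRNA decapping protein (0.979), AT3G15140 (0.978), AT4G04670 (0.976), AT5G41300 (0.975), AT1G20690 (0.974), AT2G15880 (0.973), AT5G41290 (0.969), AT2G24550 (0.965), AT1G75150 (0.965) and AT3G01790 (0.965). A second probe set of AT1G20690 had a coefficient of 0.509. All 10 had lower means in the overexpressor than in wild type, and 4 of them passed the test, beside 0.609% of all probe sets that fell. Of these, AT4G04670 passed narrowly (limma, adjusted p = 0.0497). The 10 were picked for running with ICL on these arrays, so lower overexpressor values follow from the choice and nothing is read from either count. In 11 other settings chosen after seeing the data (another normalization, centring, or 1 array left out), AT3G15140 and AT5G41300 were among the 10 each time, and AT3G01790 was so 1 time.

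Most of these genes had smaller differences than ICL. AT5G41300 stood at -1.44 ± 0.07 and AT5G41290 at -1.52 ± 0.13 in the overexpressor against wild type (log2, SE), and at 0.48 and 0.32 in the mutant, where neither was called. AT2G15880 differed by -0.54 in the overexpressor, and the other 7 by at most 0.28 in size. The neighbouring loci AT5G41290 and AT5G41300 were therefore the alike genes closest to ICL in size; by the coefficient they stood behind DCP5-L, AT3G15140 and AT4G04670, and AT5G41290 was among the 10 in 6 of the 11 other settings. When each array was set against the mean of its own genotype, the coefficient with ICL was 0.90 for DCP5-L, 0.61 for AT5G41290 and 0.11 for AT5G41300. The likeness of AT5G41300 therefore lay mainly between genotype means. The SD of DCP5-L was 0.002 in the overexpressor, 0.006 in the mutant and 0.038 in wild type. Its 0.90 thus rested mainly on the wild-type arrays, of which replicate 2 was the lowest for both genes.

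**Figure D5:**
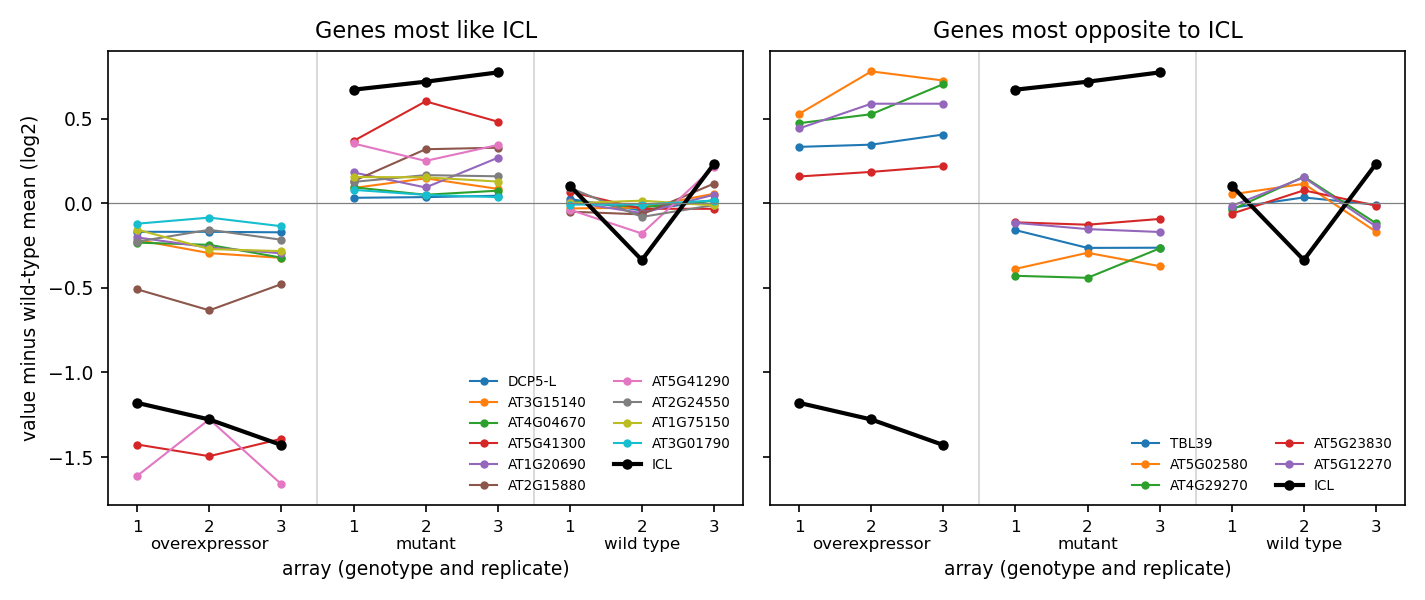
RMA value minus the wild-type mean (log2, vertical axis) on each array (horizontal axis, by genotype and replicate) for ICL in black with the 10 most alike genes on the left and the 5 most opposite on the right; lines join the arrays of 1 genotype. AT5G41290 and AT5G41300 run with ICL near -1.5 in the overexpressor, while the other alike genes stay within 0.54 of 0 on average there.

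The most opposite values were those of TBL39 (AT2G42570), of a family of wall polysaccharide acetyltransferases, at -0.988, and of AT5G02580 (-0.987), AT4G29270 (-0.986), AT5G23830 (-0.985) and AT5G12270 (-0.982). In the 11 other settings TBL39 stayed among the 5 most opposite 10 times, and AT5G02580 and AT4G29270 9 times each. AT5G23830 and AT5G12270 did so only 3 times each. TBL39 averaged 10.75 ± 0.04 in the overexpressor, 10.16 ± 0.06 in the mutant and 10.39 ± 0.03 in wild type (log2, SD, n = 3 each). Of these 5 genes, 4 (all but AT5G23830) rose in the overexpressor against wild type, beside 0.745% of all probe sets. AT5G02580 had the largest difference of the 5, 0.68 ± 0.095 (log2, SE, limma, adjusted p = 0.0186). The 5 were picked for running against ICL on these arrays, so higher overexpressor values follow from the choice. The count and the p-value are therefore a description. Likeness chosen in this way uses the same arrays as the ICL comparisons and adds no independent support to them.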

How the data were processed

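The authors deposited 1 table of log2 values for 38408 probe sets on 9 single-channel arrays. RMA, which corrects background, normalizes between arrays and summarises probes, is named per the submitters' processing notes without version or settings. Medians of the deposited log2 values lay between 5.85 and 5.92, and no further normalization was applied. Arrays have no read depth, so precision depends on how many there are. Genes came from the platform's probe annotation, updated through RefSeq TAIR10.1 (16722 probe sets with 1 gene, of which 16670 matched, 759 with several and 20927 not listed). Of all probe sets, 5529 repeated the values of an earlier one.

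limma 3.58.1 (lmFit and eBayes, R 4.3.3) was run on all 9 arrays together, with genotype as the only term and Benjamini-Hochberg adjustment across the 38408 probe sets. "Rose", "fell" and "called" mean an adjusted p below 0.05. The fit was also run on simulated data with independent normal noise, without shared array effects or repeated probe sets. That run checks the code and not the rate of false calls on these arrays. The glyoxylate cycle genes and the 12 lists of 159 genes were chosen with earlier results of these data known. Named were all measured members; per list and comparison the called genes and, where fewer than 3, those with the largest differences up to 3; the 10 most and 5 least correlated genes; and ICL's nearest measured neighbours. Other genes named were added after seeing values.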

Additional observations from a re-analysis of the deposited data

How the results depend on the processing

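The ICL difference kept its direction in all 3 comparisons, in 10 alternative settings and in 6 refits without 1 array each. In the same fits it kept its side of the threshold in both comparisons with wild type. With the replicate block the overexpressor differed from wild type by -1.30 (limma, adjusted p = 0.0344). These fits reuse arrays from which ICL was picked, so they add no independent support. The repeat numbers do not pair the arrays (correlations of same-numbered deviations from -0.088 to 0.032). The number of probe sets called moved more. For overexpressor against wild type it was 520, but 200 with the replicate block, 798 with eBayes trend and robust, 249 with only the 6 arrays compared, 878 among probe sets with means over the 50th percentile and 174 to 245 without 1 array. For mutant against wild type it was 9 (3240 at an unadjusted p below 0.05), but 1 with the replicate block, 2 with only the 6 arrays, 1 among probe sets with 1 gene and 1 to 6 without 1 array. For overexpressor against mutant it was 702, but 347 with the replicate block, 1107 with trend and robust, 260 with only the 6 arrays, 1211 over the 50th percentile and 295 to 510 without 1 array. Between overexpressor and mutant, the call of PPDK ended with the replicate block (adjusted p = 0.124), with trend and robust (0.0793) and with only the 6 arrays (0.126), and that of AT1G65570 with the replicate block (0.0607) and with only the 6 arrays (0.0859). PPDK was gained against wild type in 3 settings (adjusted p from 0.0383 to 0.0458). With arrays centred on their medians, 458 were higher and 251 lower in the overexpressor than in the mutant, beside 373 and 329 as reported, and 6 higher and 5 lower in the mutant than in wild type, beside 6 and 3. Over the 50th percentile 3 were higher and 10 lower in the mutant. For overexpressor against wild type 286 were higher and 234 lower, but 413 and 465 over the 50th percentile and 216 and 221 among probe sets with 1 gene. For overexpressor against mutant lower calls also led with trend and robust (529 higher, 578 lower) and over the 50th percentile (564 and 647). Differences near 0, none called, changed sign. For overexpressor minus wild type, cICDH was 0.009 with quantile normalization and 0.001 with centring, and LHCB4.1 was 0.009 with array weights and 0.001 with centring. For mutant minus wild type, FOLB3 was -0.006 with centring. For overexpressor minus mutant, HAOX2 was 0.008 with array weights, 0.017 with quantile normalization and 0.025 with centring, and EXPA7 was 0.004 with quantile normalization and 0.025 with centring. Without 1 array, overexpressor minus wild type ranged over -0.018 to 0.05 for AIM1, -0.087 to 0.003 for HAOX2, -0.137 to 0.044 for HPR (HPR1), -0.017 to 0.023 for cICDH, -0.097 to 0.046 for MCCB, -0.071 to 0.009 for D2HGDH, -0.082 to 0.091 for LHCB4.1, -0.134 to 0.002 for EXPA18 and -0.169 to 0.039 for FOLB3. Mutant minus wild type ranged over -0.08 to 0.024 for HAOX2, -0.006 to 0.109 for AT2G26800, -0.018 to 0.123 for RCA and -0.114 to 0.133 for FOLB3. Overexpressor minus mutant ranged over -0.187 to 0.145 for HAOX1, -0.058 to 0.027 for HAOX2, -0.032 to 0.028 for EXPA7 and -0.209 to 0.038 for FOLB3. The causes were not tested. The planned fits for MLS, CSY2, CSY3 and PCK1 could not be run, since the annotation pairs no probe set with any of these genes alone; probe sets it does not list were not searched.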
